A study of Homo sapiens with 6 samples.

Results

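The genes described here were 10 components of transforming growth factor beta (TGF-beta) signalling, namely the ligand TGFB1, the receptor TGFBR1, the signal transducers SMAD2, SMAD3 and SMAD4, the inhibitory proteins SMAD6 and SMAD7, and the corepressors SKI, SKIL and TGIF1. They were picked by symbol from the deposited table of 27420 genes, and all 10 were listed there. The table gives FPKM values (fragments per kilobase of transcript and per unit of sequencing depth, a level already divided by transcript length) from RNA-Seq of A673 and SKNMC cells, both established Ewing sarcoma lines. Cells of each line were exposed for 6 h to DMSO, the solvent control, or to THZ1 at 50 nM (low-dose) or 200 nM (high-dose). THZ1 is a covalent inhibitor of CDK7, the kinase of the transcription factor TFIIH that phosphorylates the C-terminal domain of RNA polymerase II, and the doses served to compare a limited with a stronger loss of that phosphorylation. Each of the 6 conditions was represented by 1 library, so no value below has a replicate, an error or a test, and a fold change compares libraries rather than conditions. The deposited table is headed as average expression, and whether libraries were pooled before deposit is not given in the sources used here. The medium held fetal bovine serum, and the labels name no added TGF-beta.

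TGF-beta binds a pair of transmembrane kinases, the type II receptor TGFBR2 and the type I receptor TGFBR1, and TGFBR1 then phosphorylates SMAD2 and SMAD3. The phosphorylated SMADs join SMAD4, enter the nucleus and switch genes on or off with partner factors. SMAD6 and SMAD7 block the receptors and are themselves induced by the pathway, and SKI, SKIL (SnoN) and TGIF1 bind SMAD complexes on DNA and recruit histone deacetylases. In Ewing sarcoma the EWS-FLI1 fusion protein is known to repress the type II receptor gene.

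The identity of the libraries was checked against marker lists. All 7 Ewing sarcoma markers (CD99, NKX2-2, STEAP1, NR0B1, PRKCB, CCND1 and LIPI) lay above 1 FPKM in all 6 libraries, with a summed level of 1368 to 1592 FPKM in A673 and 714.5 to 1052 FPKM in SKNMC. The listed markers of endothelial, epithelial and smooth muscle cells stayed below 1 FPKM throughout. The endothelial marker PECAM1 had no entry under that symbol, so it could not be checked. Among leukocyte markers PTPRC alone exceeded 1 FPKM, at 7.91 to 13.1 FPKM in the SKNMC libraries. The column sums of the THZ1 libraries were 97.78% to 100.5% of the sum in DMSO of the same line. FPKM is a share of the sequenced RNA, so a lower RNA content per cell, fewer cells, or a loss shared by all genes cannot be told apart from no change.

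A gene was called active when it exceeded 1 FPKM in DMSO of its line, and called decreased or increased when FPKM + 1 changed at least 2-fold, which is 1 on the log2 scale. Adding 1 understates the change of genes with low levels. All 10 genes were active in both lines. At 200 nM, SMAD4, SMAD6, SKI and TGIF1 decreased in A673 and in SKNMC, against 25.3% of all 11077 active genes decreased in A673 and 27.3% of 11896 in SKNMC. None of the 10 increased at 200 nM in either line (0.126% and 0.462% of active genes did). At 50 nM the calls were fewer. SMAD6 was the only member that decreased in A673 (15.9% of active genes decreased), and no member increased (0.343%). In SKNMC, SMAD6 and SKIL decreased (15.8%) and SMAD7 increased (0.471%). With 10 genes, the 40.0% that decreased at 200 nM and the 10.0% and 20.0% that decreased at 50 nM are not far from these backgrounds, and nothing particular to the group is read from the counts. In both lines together, 1 of 10 genes decreased at 50 nM, against 11.4% of the 10574 genes active in both, and 4 of 10 at 200 nM, against 20.4%. No member increased in both lines at either dose, as 0.218% and 0.0662% of these genes did. With a limit of 1.5-fold in place of 2-fold, 7 of 10 genes decreased at 200 nM in each line (41.1% and 48.0% of active genes did), and SMAD7 increased in SKNMC (2.81%).

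**Figure D1:**
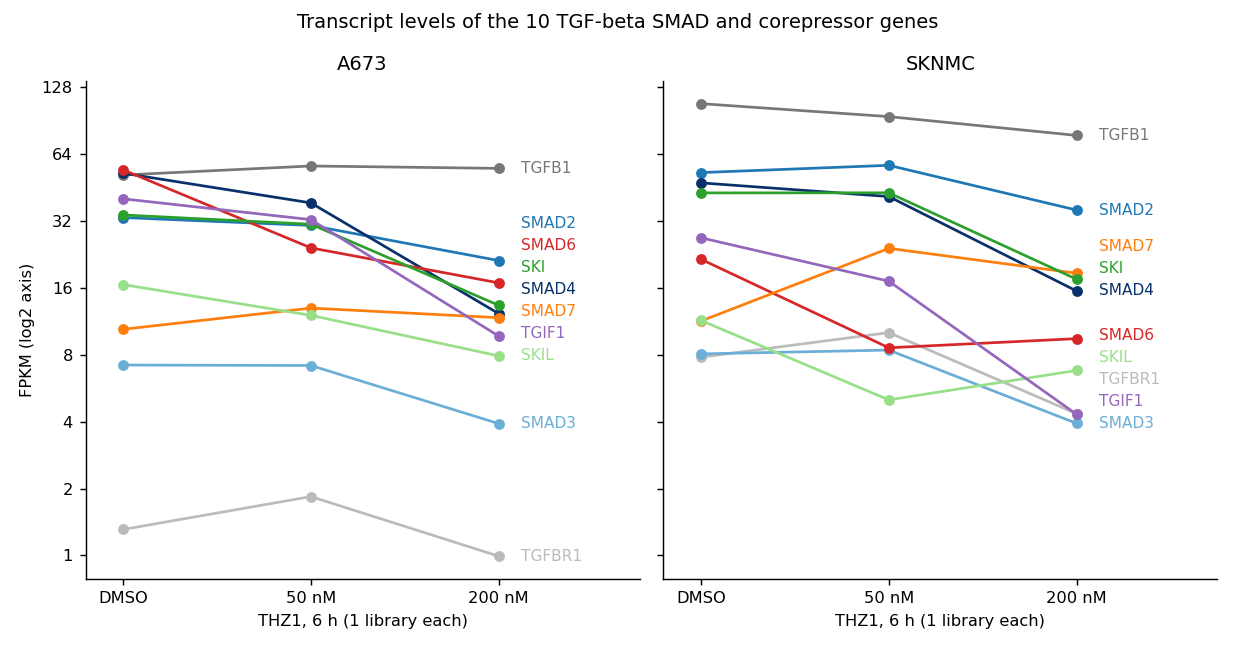
FPKM of the 10 genes on a log2 axis in DMSO, 50 nM and 200 nM THZ1, with 1 point for each library and lines joining the libraries of 1 gene, A673 on the left and SKNMC on the right. SMAD4, TGIF1 and SKI drop mainly between 50 nM and 200 nM, SMAD6 is already low at 50 nM, and SMAD7 has its own highest value at 50 nM in both lines, as TGFBR1 does.

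TGFB1 (ENSG00000105329, chr19:41807491-41859816 on the minus strand, hg19) encodes the ligand that cells secrete in a latent form. In the order DMSO, 50 nM, 200 nM, it measured 51.5, 56.5 and 55.1 FPKM in A673 and 108, 94.3 and 77.6 FPKM in SKNMC. TGFB1 was the most abundant of the 10 transcripts in every library except A673 with DMSO, where SMAD6 and SMAD4 were higher. Against DMSO, the log2 fold changes at the low and the high dose were 0.13 and 0.10 in A673, and -0.19 and -0.47 in SKNMC. None of the 4 reached 2-fold, and each changed sign when the libraries were put on another scale, set by the 75th percentile over active genes or by ribosomal protein genes, as described further on. The span of TGFB1 overlaps HNRNPUL1, CCDC97, TMEM91 and the lincRNA CTC-435M10.3 on the opposite strand, and strand use in counting is not given in the sources used here, so fragments from shared positions cannot be told apart. Of these, CCDC97 decreased in all 4 comparisons with DMSO, by -1.29 to -1.56 on the log2 scale.

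TGFBR1 (ENSG00000106799, chr9:101866319-101916474, plus strand) encodes the type I receptor kinase. Its levels were 1.31, 1.84 and 0.993 FPKM in A673 with DMSO, 50 nM and 200 nM, and 7.80, 10.1 and 4.34 FPKM in SKNMC. In both lines the 50 nM library was the highest and the 200 nM library the lowest. The log2 fold changes against DMSO were 0.30 and -0.21 in A673 and 0.33 and -0.72 in SKNMC, none of them 2-fold. Between 50 nM and 200 nM TGFBR1 decreased in SKNMC, with a log2 ratio of -1.05, and in A673 that ratio was -0.51 at levels close to the limit of an active gene.

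SMAD2 (ENSG00000175387, chr18:45357921-45457515, minus strand) and SMAD3 (ENSG00000166949, chr15:67356100-67487533, plus strand) are the receptor-activated SMADs of this pathway. SMAD2 measured 33.1, 30.5 and 21.2 FPKM in A673 and 52.8, 56.9 and 35.8 FPKM in SKNMC, in the order DMSO, 50 nM, 200 nM. For SMAD3 the values were 7.19, 7.15 and 3.92 FPKM in A673 and 8.07, 8.39 and 3.93 FPKM in SKNMC. Both genes thus had their lowest value at 200 nM in both lines, and levels at 50 nM lay near those in DMSO. At 200 nM the log2 fold changes were -0.62 and -0.55 for SMAD2 in A673 and SKNMC, and -0.74 and -0.88 for SMAD3, none of which reached 2-fold. At 50 nM they were -0.11 and 0.11 for SMAD2 and -0.0061 and 0.05 for SMAD3, and all 4 changed sign under another scaling. The 200 nM value of SMAD2 in SKNMC did so as well.

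SMAD4 (ENSG00000141646, chr18:48494409-48611415, plus strand) is the shared partner of all receptor-activated SMADs. It measured 52.5, 38.6 and 12.3 FPKM in A673 and 47.5, 41.2 and 15.5 FPKM in SKNMC. The 200 nM library was the lowest in each line, at 23.3% of the DMSO level in A673 and 32.6% in SKNMC. SMAD4 thus decreased at 200 nM, with log2 fold changes of -2.01 and -1.56, and at 50 nM the values were -0.43 and -0.20, not 2-fold. Only 4.6% of active genes in A673 and 10.2% in SKNMC had a lower fold change at 200 nM than SMAD4. The span of SMAD4 overlaps ELAC1, a tRNA 3' end processing gene, on the same strand. ELAC1 measured 4.87, 1.60 and 2.55 FPKM in A673 and 7.20, 1.81 and 1.995 FPKM in SKNMC. Its lowest value in each line was at 50 nM, not at 200 nM as for SMAD4, and how the overlapping fragments were assigned was not tested.

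The inhibitory SMADs moved apart. SMAD6 (ENSG00000137834, chr15:66994565-67074338, plus strand), best known as an inhibitor of the bone morphogenetic protein (BMP) branch, measured 54.3, 24.2 and 16.8 FPKM in A673 and 21.5, 8.60 and 9.45 FPKM in SKNMC. All 4 THZ1 libraries were below DMSO of their line, and SMAD6 decreased in all 4 comparisons. In A673 the log2 fold change was -1.13 with the low dose and -1.63 with the high dose, and in SKNMC it was -1.23 and -1.11. SMAD6 was the only member called decreased at both doses in both lines. Its level at 50 nM was already 44.6% of DMSO in A673 and 40.0% in SKNMC.

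SMAD7 (ENSG00000101665, chr18:46446222-46477081, minus strand), which blocks TGFBR1 and recruits ubiquitin ligases to it, measured 10.4, 13.0 and 11.7 FPKM in A673 and 11.3, 24.1 and 18.6 FPKM in SKNMC. The THZ1 libraries were above DMSO in both lines on the deposited scale. SMAD7 increased at 50 nM in SKNMC, with a log2 fold change of 1.02, just past the limit and above 99.6% of active genes. At 200 nM in SKNMC the value was 0.67, above 98.1% of active genes although not 2-fold. In A673 the values were 0.29 at 50 nM and 0.16 at 200 nM, and the latter ranged from -0.17 to 0.51 over the scalings, changing sign. On the deposited scale SMAD7 was the only 1 of the 10 genes above DMSO in SKNMC at 200 nM, and with the 75th percentile scaling TGFB1 (0.09) and SMAD2 (0.0085) were above it too.

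The 250 bases before an annotated start of SMAD6 and of SMAD7 are shown because the 2 genes share a role and moved apart, and those of SKIL because it is a corepressor gene whose dose pattern differed between the lines. RefSeq lists 3 starts for SMAD7 and 1 each for SMAD6 and SKIL, and the first listed was used here and for the genes below. The windows come from RefSeq (GRCh38.p14, a newer build than that of the FPKM table), for SMAD6 chr15:66701986-66702235 on the plus strand, for SMAD7 chr18:48950966-48951215 on the minus strand and for SKIL chr3:170357465-170357714 on the plus strand, each read 5′ to 3′ in the direction of the gene. Capitals mark matches on either strand to the GC box GGGCGG, the palindromic Smad element GTCTAGAC, the short Smad motif CAGAC and the cyclic AMP response element TGACGTCA.
SMAD6: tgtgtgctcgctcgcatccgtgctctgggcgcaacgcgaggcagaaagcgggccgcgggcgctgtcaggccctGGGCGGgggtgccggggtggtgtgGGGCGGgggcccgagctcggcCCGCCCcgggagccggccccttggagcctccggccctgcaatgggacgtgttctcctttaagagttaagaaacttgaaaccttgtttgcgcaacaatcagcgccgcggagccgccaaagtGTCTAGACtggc
SMAD7: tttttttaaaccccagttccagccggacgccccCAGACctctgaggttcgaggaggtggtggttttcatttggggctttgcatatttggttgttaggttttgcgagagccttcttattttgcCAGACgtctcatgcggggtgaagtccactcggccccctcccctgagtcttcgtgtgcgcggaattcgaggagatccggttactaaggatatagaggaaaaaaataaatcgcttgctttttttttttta
SKIL: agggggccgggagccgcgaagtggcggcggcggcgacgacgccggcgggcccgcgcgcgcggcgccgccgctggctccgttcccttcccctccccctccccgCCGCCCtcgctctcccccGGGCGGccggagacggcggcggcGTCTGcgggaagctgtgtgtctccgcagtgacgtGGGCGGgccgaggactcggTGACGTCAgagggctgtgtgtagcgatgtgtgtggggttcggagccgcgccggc
The SMAD6 window held GTCTAGAC once, between 12 and 5 bases before the start, and 3 GC boxes. That palindrome occurs in 0.176% of 27305 RefSeq promoters of this length. The SMAD7 window held CAGAC at 2 positions, a motif present in 37.8% of promoters, and no GC box (42.3% of promoters hold one). A match describes letters in this window and was not tested as a binding site. The other listed starts of SMAD7 and bases outside these windows were not searched. A motif missing from a window may thus lie elsewhere at the gene, and no difference between the promoters of SMAD6 and SMAD7 is read from it.

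SKI (ENSG00000157933, chr1:2160133-2241558, plus strand), a corepressor that binds the SMAD2/3 and SMAD4 complex, measured 34.0, 30.9 and 13.4 FPKM in A673 and 42.8, 42.8 and 17.5 FPKM in SKNMC. Levels at 50 nM lay close to DMSO, and the 200 nM library was the lowest in each line. SKI decreased at 200 nM, with log2 fold changes of -1.29 and -1.24. At 50 nM the values were -0.13 and 0.0015, and both changed sign under another scaling.

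SKIL (ENSG00000136603, chr3:170075465-170114623, plus strand) encodes SnoN, the closest relative of SKI. It measured 16.6, 12.0 and 7.90 FPKM in A673 and 11.4, 5.01 and 6.80 FPKM in SKNMC. In A673 the 200 nM library was the lowest, while in SKNMC the 50 nM library was. SKIL decreased at 50 nM in SKNMC, with a log2 fold change of -1.05, just past the limit. The A673 value at 200 nM, -0.98, lay just short of it, and the remaining values were -0.43 at 50 nM in A673 and -0.67 at 200 nM in SKNMC. The SKIL window printed above held the cyclic AMP response element between 54 and 47 bases before the start, which 1.77% of promoters hold, with 3 GC boxes and 1 CAGAC.

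TGIF1 (ENSG00000177426, chr18:3411605-3458409, plus strand) is a homeodomain corepressor that competes with coactivators for SMAD2. It measured 40.2, 32.4 and 9.70 FPKM in A673 and 26.9, 17.1 and 4.31 FPKM in SKNMC. Its level at 200 nM was 24.1% of DMSO in A673 and 16.1% in SKNMC, the lowest percentage of the 10 genes in SKNMC and second to SMAD4 in A673. TGIF1 decreased at 200 nM, with log2 fold changes of -1.95 and -2.39, below which lay 5.21% and 1.24% of active genes. At 50 nM the values were -0.30 and -0.62.

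**Figure D2:**
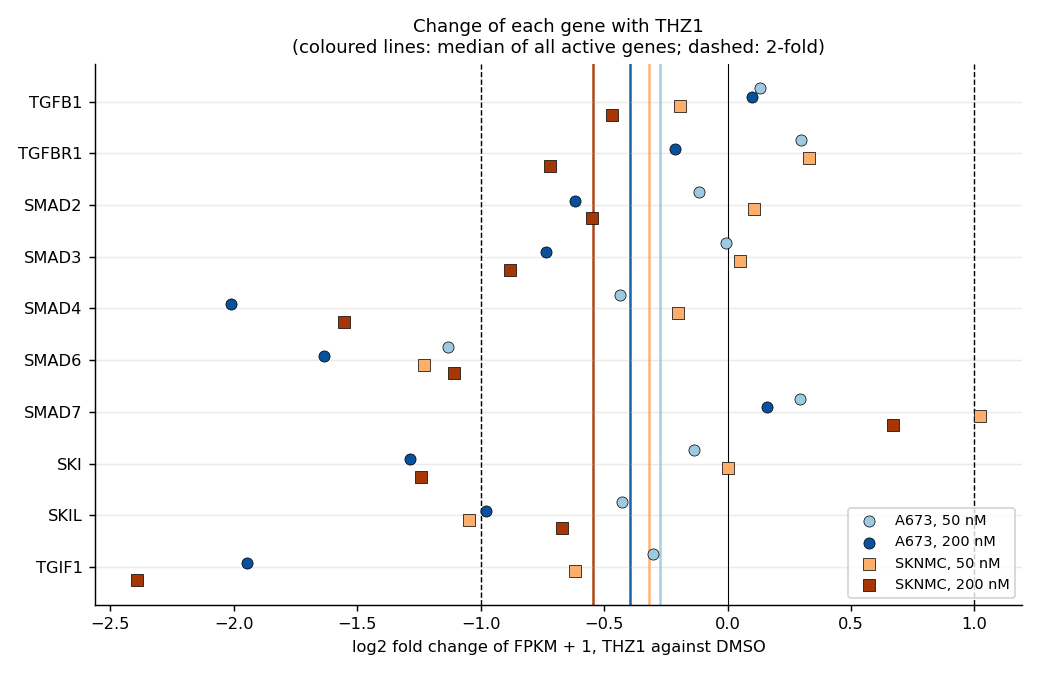
Log2 fold change of FPKM + 1 against DMSO for each of the 10 genes, with circles for A673 and squares for SKNMC, pale at 50 nM and dark at 200 nM. Dashed lines mark 2-fold and coloured lines the median of all active genes (-0.27 and -0.40 in A673, -0.32 and -0.55 in SKNMC at 50 nM and 200 nM); SMAD4, SMAD6, SKI and TGIF1 lie left of 2-fold at 200 nM in both lines, and SMAD7 in SKNMC at 50 nM lies right of it.

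As a group the 10 genes had a median log2 fold change at 50 nM of -0.12 for A673 and -0.10 for SKNMC. The corresponding medians of all active genes were lower, -0.27 and -0.32. At 200 nM the order was the opposite, with -0.86 and -0.80 for the 10 genes beside -0.40 and -0.55 for all active genes. The summed level of the 10 was 301.1, 247.1 and 153.0 FPKM in A673 and 337.8, 308.5 and 193.8 FPKM in SKNMC, in the order DMSO, 50 nM, 200 nM. Within a line the low-dose and high-dose values share their DMSO library and so are not independent of each other.

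The doses were also compared directly. SMAD4, SKI and TGIF1 were lower at 200 nM than at 50 nM by at least 2-fold in A673, where 7.44% of active genes were. In SKNMC these genes and TGFBR1 were (8.39%), although with the 75th percentile scaling SKI (-0.99) and TGFBR1 (-0.84) were just short of 2-fold there. For TGIF1 the log2 ratio of 200 nM to 50 nM was -1.64 in A673 and -1.77 in SKNMC, for SMAD4 -1.58 and -1.36, and for SKI -1.15 and -1.24. Few active genes had a lower ratio than these, between 0.782% for TGIF1 in SKNMC and 4.97% for SKI in A673. TGIF1, SMAD4 and SKI were singled out here for their low ratios. For the other members the share ran from 7.35% for TGFBR1 to 89.6% for SKIL, both in SKNMC. Nothing particular to the group is read from these ranks. SMAD6 showed another pattern, with ratios of -0.50 and 0.12, and the SKNMC value changed sign under another scaling. No member was higher at 200 nM than at 50 nM by 2-fold, as 0.117% and 0.37% of active genes were, and SKIL in SKNMC had the highest ratio, 0.38.

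Ratios between transcripts of the same library do not depend on how the libraries are scaled. The SMAD7 to SMAD6 ratio, which sets the inhibitors side by side, was 0.192, 0.536 and 0.697 in A673 and 0.527, 2.80 and 1.97 in SKNMC. It was thus 2.80 and 3.64 times the DMSO ratio in A673, and 5.32 and 3.74 times in SKNMC. SMAD6 was the more abundant inhibitor in all 3 A673 libraries, whereas in SKNMC SMAD7 exceeded SMAD6 in both THZ1 libraries. The ratio of SMAD2 to its partner SMAD4 was 0.632, 0.792 and 1.73 in A673 and 1.11, 1.38 and 2.31 in SKNMC. At 200 nM it was 2.74 and 2.08 times the DMSO ratio. SMAD3 remained the less abundant receptor-activated SMAD in every library, with SMAD3 to SMAD2 ratios between 0.110 and 0.234. The SKI to SKIL ratio, between the related corepressors, was 2.06, 2.57 and 1.69 in A673 and 3.75, 8.54 and 2.57 in SKNMC. It was highest at 50 nM and lowest at 200 nM in both lines.

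**Figure D3:**
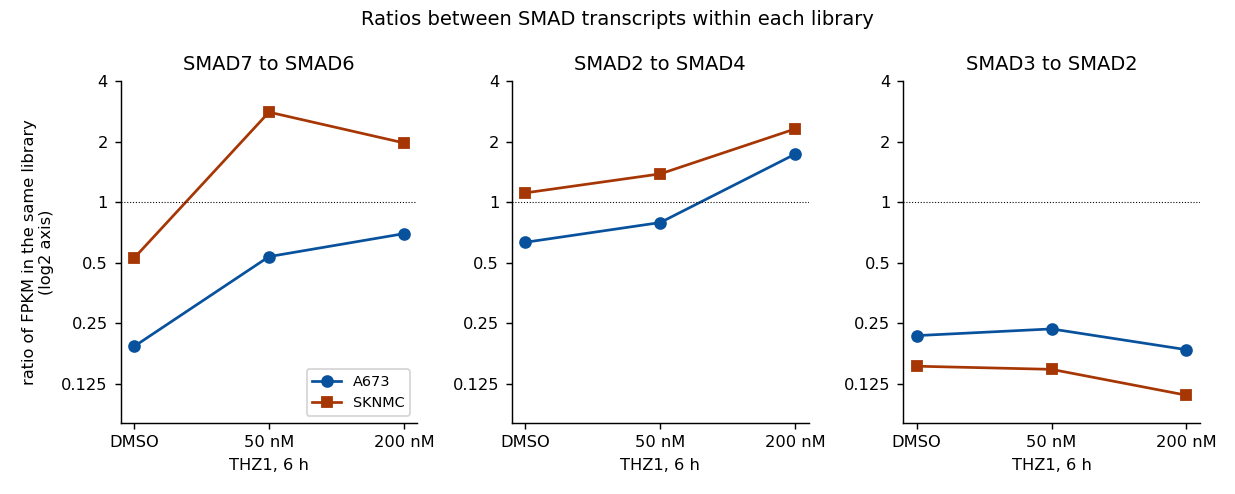
Ratio of FPKM between a pair of SMAD genes in the same library, on a log2 axis, for DMSO, 50 nM and 200 nM THZ1, with blue circles for A673 and brown squares for SKNMC (1 library each) and a dotted line at equal levels. The SMAD7 to SMAD6 and SMAD2 to SMAD4 ratios are above their DMSO value in all 4 THZ1 libraries, and the SMAD3 to SMAD2 ratio stays between 0.110 and 0.234.

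Between the DMSO libraries of the 2 lines, 3 of the 10 genes differed by at least 2-fold on the deposited scale. TGFB1 and TGFBR1 were lower in A673 than in SKNMC by at least 2-fold, with log2 ratios of -1.05 and -1.93, where 15.0% of the 12399 genes active in either line were lower. For TGFB1 the ratio was -0.60 with the ribosomal protein scaling, not 2-fold. SMAD6 was higher in A673, with a log2 ratio of 1.30 (8.42% of genes were higher). The remaining 7 genes had ratios from -0.66 for SMAD2 to 0.56 for TGIF1. In A673 the order of levels in DMSO, from high to low, was SMAD6, SMAD4, TGFB1, TGIF1, SKI, SMAD2, SKIL, SMAD7, SMAD3 and TGFBR1. In SKNMC it was TGFB1, SMAD2, SMAD4, SKI, TGIF1, SMAD6, SKIL, SMAD7, SMAD3 and TGFBR1. The last 4 places were the same in both lines. Without replicates it cannot be said which neighbours in these orders differ. The second receptor, TGFBR2, which was looked up after the values were seen, measured 19.2, 17.7 and 7.44 FPKM in A673 and 1.49, 1.12 and 0.402 FPKM in SKNMC. The line with more TGFBR1 thus had less TGFBR2, with log2 ratios of A673 to SKNMC in DMSO of -1.93 and 3.02.

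The dependence of these values on the scale was examined by rescaling each library to a common sum, to the 75th percentile over active genes, or to the median level of 87 ribosomal protein genes. The 75th percentile raised the median of all active genes by 0.22 and 0.32 on the log2 scale for the low and high dose in A673, and by 0.25 and 0.48 in SKNMC. The ribosomal protein reference moved it by -0.19 and -0.29 in A673 and by -0.28 and -0.44 in SKNMC. SMAD4 and TGIF1 at 200 nM stayed decreased in both lines under all 4 scalings, with log2 fold changes of -2.34 to -1.66 and -2.27 to -1.60 in A673 and of -2.08 to -1.02 and -2.83 to -1.91 in SKNMC. SMAD6 at 200 nM in A673 did so as well (-1.97 to -1.28). The 75th percentile took the other decreases below 2-fold, with values of -0.94 and -0.70 for SKI at 200 nM, -0.89 and -0.97 for SMAD6 at 50 nM, -0.58 for SMAD6 at 200 nM in SKNMC and -0.80 for SKIL at 50 nM in SKNMC. No called value changed sign. For SMAD7 in SKNMC the fold change ranged from 0.70 to 1.30 at 50 nM, no longer 2-fold with the ribosomal protein reference, and from 0.14 to 1.21 at 200 nM, 2-fold with the 75th percentile.

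**Figure D4:**
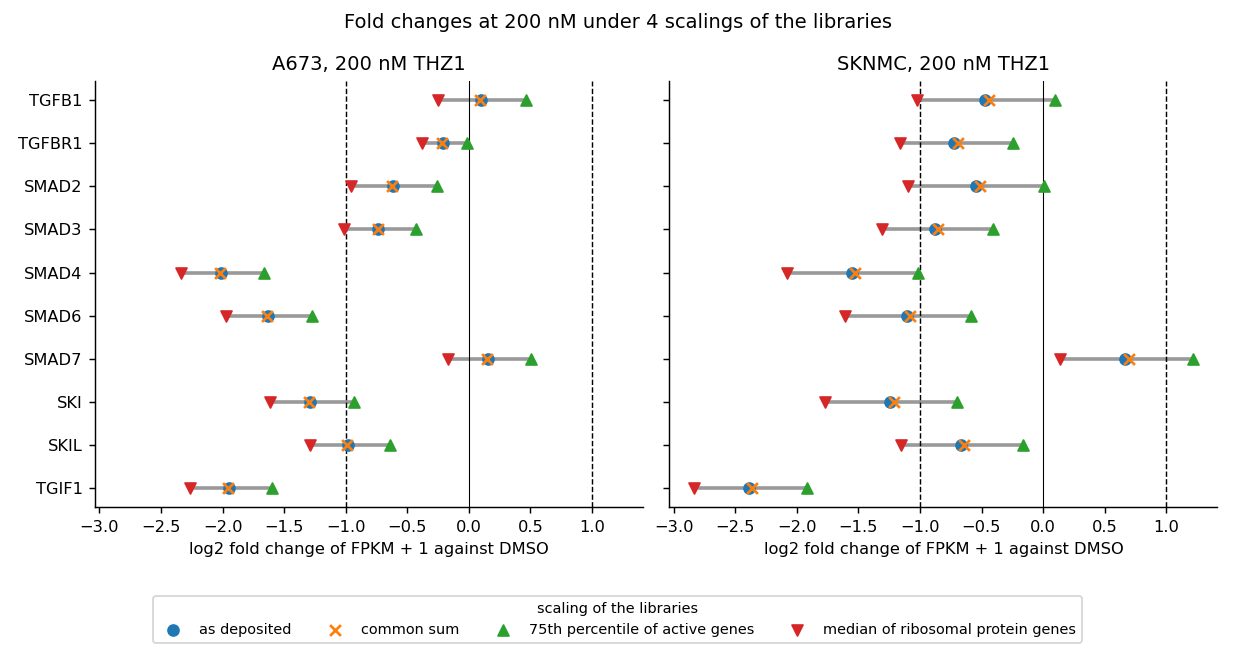
Log2 fold change of FPKM + 1 at 200 nM THZ1 against DMSO for the 10 genes under 4 scalings of the libraries (circle, as deposited; cross, common sum; upward triangle, 75th percentile of active genes; downward triangle, median of ribosomal protein genes), with grey bars from the lowest to the highest and dashed lines at 2-fold. The bars of SMAD4 and TGIF1 lie wholly left of the 2-fold line in both lines, while those of TGFB1 cross 0 in both.

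The rest of the pathway was covered by 81 further genes in 9 lists sorted by role, of which 59 were active in A673 and 66 in SKNMC. At 50 nM, 8 of 59 decreased in A673 and 5 of 66 in SKNMC, which is 13.6% and 7.58% beside the backgrounds of 15.9% and 15.8%. JUNB increased there in A673, and JUNB and TOB1 in SKNMC (backgrounds of 0.343% and 0.471%). At 200 nM, 20 of 59 decreased in A673 and 16 of 66 in SKNMC, which is 33.9% and 24.2% beside the backgrounds of 25.3% and 27.3%. JUNB alone increased in each line (backgrounds of 0.126% and 0.462%). The median log2 fold changes at 200 nM were -0.61 in A673 and -0.41 in SKNMC, beside -0.40 and -0.55 for all active genes. At 50 nM they were -0.20 and -0.17, beside -0.27 and -0.32. In A673 at 200 nM the share was thus higher and the median lower than for all active genes. In SKNMC the share was lower and the median higher at both doses. How far these differences go beyond the background was not tested.

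Among the transducers of the BMP branch, SMAD1, SMAD5 and SMAD9, 3 of 3 decreased at 200 nM in A673 and 2 of 3 in SKNMC. For this and each list below the share of all active genes decreased at 200 nM was 25.3% in A673 and 27.3% in SKNMC. SMAD1 measured 15.2, 6.81 and 2.21 FPKM in A673 and 19.1, 11.8 and 4.80 FPKM in SKNMC, and at 200 nM its log2 fold changes were -2.33 and -1.79. SMAD5 was the highest of the list in mean fold change, with -1.31 in A673 and -0.81 in SKNMC at 200 nM. Of the other receptors, 3 of 7 decreased at 200 nM in A673 and 2 of 9 in SKNMC. BMPR1A, a type I BMP receptor, was among them in both lines (-1.43 and -1.05), and the activin receptor ACVR2A had -0.59 and -0.10. None of the 5 active ligand and latency genes in A673 reached 2-fold, and in SKNMC BMP2 alone of 9 did, with 13.8, 3.62 and 0.574 FPKM. TGFB3 had log2 fold changes of -0.33 and -0.48 at 200 nM, and LTBP3, a latent TGF-beta binding protein, 0.38 and 0.70.

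The corepressor list held the steepest change of the pathway genes in A673. TGIF2, the paralogue of TGIF1, measured 19.2, 2.34 and 1.48 FPKM in A673 and 38.3, 8.20 and 4.22 FPKM in SKNMC, and it decreased in all 4 comparisons with DMSO. Its log2 fold changes were -2.60 and -3.02 in A673 and -2.09 and -2.91 in SKNMC. TGIF2 was thus decreased at 50 nM, where its paralogue TGIF1 was not in either line. In the same list HDAC1, a histone deacetylase, had 0.66 and 0.56 at 200 nM, and 2 of 8 genes in A673 and 3 of 8 in SKNMC decreased, beside 25.3% and 27.3% of all active genes. SMAD partners counted 2 of 5 decreased at 200 nM in A673 and 1 of 5 in SKNMC, the acetyltransferase EP300 in both (-1.53 and -1.61), while the anchor protein gene ZFYVE9 (SARA) had -0.17 and -0.86.

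At 200 nM, 2 of 5 ubiquitin ligases acting on SMADs decreased in each line, SMURF2 and RNF111, beside 25.3% and 27.3% of all active genes, and at 50 nM RNF111 alone did (15.9% and 15.8%). RNF111 (Arkadia), which marks SMAD7 and SKIL proteins for degradation, measured 10.4, 3.15 and 1.72 FPKM in A673 and 10.5, 4.25 and 1.92 FPKM in SKNMC, a decrease in all 4 comparisons. SMURF1, a partner of SMAD7, had log2 fold changes of 0.87 and 0.43 at 50 nM and of 0.04 and 0.01 at 200 nM. Of the remaining intracellular or membrane brakes, 2 of 6 decreased at 200 nM in each line, PMEPA1 and BAMBI. BAMBI, a kinase-less decoy receptor, measured 37.8, 22.3 and 4.88 FPKM in A673 and 26.0, 16.2 and 4.72 FPKM in SKNMC, with log2 fold changes of -2.72 and -2.24 at 200 nM, and FKBP1A, which holds the type I receptor inactive, had 0.53 and 0.30. Secreted antagonists counted 1 of 3 decreased at 200 nM in A673, NOG (-1.47), and 0 of 4 in SKNMC, where NOG had -0.48, and the values of FSTL3 were -0.17 and 0.25.

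Known target genes of the pathway did not move one way. Among the 17 active in each line, 5 decreased in A673 and 3 in SKNMC at 200 nM, which is 29.4% and 17.6% beside 25.3% and 27.3% of all active genes, and at 50 nM 4 and 1 decreased (15.9% and 15.8%). JUNB increased in both lines at both doses, at 200 nM beside 0.126% and 0.462% of active genes. JUNB, an AP-1 subunit induced by many stimuli, measured 12.0, 37.2 and 51.9 FPKM in A673 and 27.1, 81.9 and 135 FPKM in SKNMC, with log2 fold changes of 1.55 to 2.27 in the 4 comparisons. SNAI2 was the only target decreased in both lines at 200 nM (-1.53 and -1.04).

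**Figure D5:**
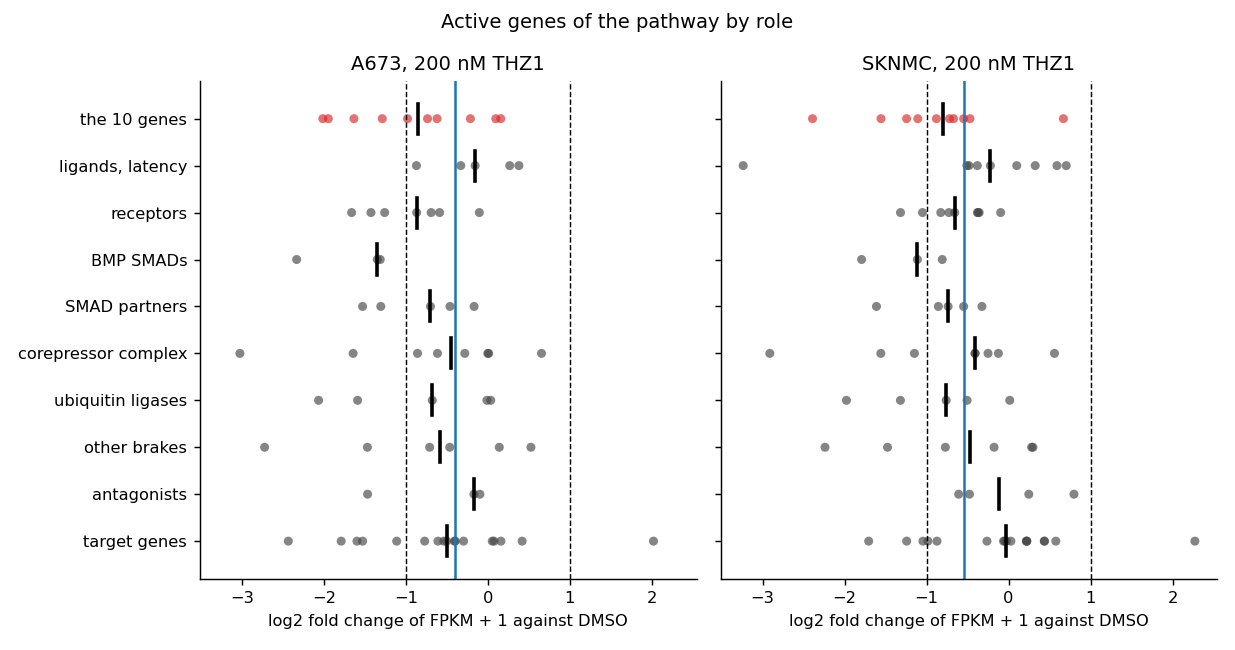
Log2 fold change of FPKM + 1 at 200 nM THZ1 against DMSO for the active genes of each role (grey points) and the 10 genes (red points), with black bars at the median of each row, a blue line at the median of all active genes and dashed lines at 2-fold. The BMP SMADs have the lowest median in both lines, TGIF2 is the leftmost point of the corepressor row and JUNB the rightmost of the target row.

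For each of the 10 genes the protein-coding gene with the most similar pattern was found among 10373 genes active in both lines, by Euclidean distance over the 4 log2 fold changes against DMSO. These were CREB3L2 for TGFB1 (distance 0.0605), LPIN2 for TGFBR1 (0.211), NAA35 for SMAD2 (0.0629), COPS2 for SMAD3 (0.0528) and ZNF134 for SMAD4 (0.07). FAM178A was nearest to SMAD6 (0.0948), VAMP1 to SMAD7 (0.215), TMEM170A to SKI (0.0944), CEP95 to SKIL (0.0882) and STK17B to TGIF1 (0.219). No member other than TGFBR1, SMAD7 and TGIF1 had its nearest gene farther than 0.1 away.

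Of the 10 genes, 4 lie on chromosome 18 (SMAD2, SMAD4, SMAD7 and TGIF1). SMAD4 and TGIF1 both decreased at 200 nM in both lines and not at 50 nM. SMAD2 did not reach 2-fold at either dose, and SMAD7 was above DMSO on the deposited scale. SMAD7 and SMAD4 are 2020 kb apart, with 10 genes above 1 FPKM in at least 1 library between them, and SMAD2 lies 989 kb from SMAD7. On chromosome 15 SMAD6 and SMAD3 are separated by 282 kb that hold 3 listed genes, none of them above 1 FPKM in any library. SMAD6 decreased at 50 nM in both lines, whereas SMAD3 had log2 fold changes of -0.0061 and 0.05 there. The gene spans ran from 30.9 kb for SMAD7 to 131.4 kb for SMAD3. Promoter windows of 250 bases were found in RefSeq for 9 of the 10 genes, all except SKI. The table lists several starts for TGFBR1 (8), TGIF1 (7), SMAD3 (5), SMAD7 (3) and SMAD2 (2), so the values below hold for the first listed window only. Their GC content was lowest for SMAD7, at 48.0%, which exceeded that of 28.7% of all promoters, followed by TGIF1 at 57.6%, and the others had 68.0% to 80.8%. The GC box (42.3% of all promoters) was present in 7 of the 9 windows (all except TGFBR1 and SMAD7). CAGAC (37.8% of all promoters) was present in 4 (TGFBR1, SMAD7, SKIL and TGIF1). The TATA box TATAAA (11.1% of promoters), the AP-1 motif TGANTCA (6.6%) and the repeat GGAAGGAA (2.99%) were in none of the 9.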

How the data were processed

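RNA-Seq libraries of A673 and SKNMC cells were prepared with the TruSeq kit and sequenced as 100-bp paired ends on a HiSeq2000. According to the methods of the study, reads were aligned with STAR and levels estimated with StringTie on hg19 with Ensembl release 75, while the submitters' processing notes name STAR and Cufflinks. Tool versions and the strand setting are not given in the sources used here. The table deposited by the authors holds FPKM per gene for 6 libraries. Its log2 columns, ratios of FPKM + 1 between THZ1 and DMSO made by the authors, were not used.

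Groups followed the sample labels, with 1 library for each line and dose. Log2 ratios of FPKM + 1 were computed for 7 comparisons with Python 3.11.15, pandas 2.3.3 and numpy 2.4.6, and drawn with matplotlib 3.10.9. The code was run on simulated data with large changes planted in well expressed genes. That run checks the code only and does not cover calls near the 2-fold limit or genes of low level. Read counts were not analysed here, and depth is unknown. In low values, at most 1.42% of ratios between libraries shared 1 bin of width 0.005, so no step of single reads could be read, and no interval is given. The members and gene lists were chosen with earlier results of these data known. Named were all 10 members, the gene of lowest and of highest mean log2 fold change among the active genes of each list (active in both lines), and the nearest gene to each member. A few called genes outside this rule (TGFBR2, BMP2, SNAI2, SMAD9, SMURF2, PMEPA1, TOB1 and CCDC97) were chosen after their values were seen, as were the 7 promoter motifs. 1 gene that this rule names among the targets is not reported here. Overlapping genes were given with their members, except RP11-729L2.2 at SMAD4 and RP11-342M21.2 at SMAD3. Both lay below 1 FPKM in every library. Alternatives were a pseudocount of 0.1, no filter, 3 other scalings and a 1.5-fold limit. Counts for 200 nM against 50 nM and for A673 against SKNMC were added after seeing the data.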

Additional observations from a re-analysis of the deposited data

Results flagged for a closer look

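TGFB1 was picked out because its log2 fold changes against DMSO were above 0 at both doses in A673, 0.1323 at 50 nM and 0.0974 at 200 nM, and below 0 at both doses in SKNMC, -0.1921 and -0.4701. There was 1 library per condition, so how far A673 and SKNMC differ here was not tested, the doses share their DMSO library, and each of the 4 values changed sign under at least 1 other scaling of the libraries.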

How the results depend on the processing

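With the 75th percentile scaling the number of the 10 genes that decreased 2-fold was 0 in A673 and 0 in SKNMC at 50 nM (11.0% and 10.3% of all active genes), 2 in SKNMC at 200 nM (SMAD4 and TGIF1, beside 13.4%) and 2 between 50 nM and 200 nM in SKNMC (5.05%), and 1 gene increased in SKNMC at 200 nM (SMAD7, beside 4.33%). With the ribosomal protein scaling 0 increased in SKNMC at 50 nM (0.177%), 9 decreased in SKNMC at 200 nM, with 49.5% of all active genes, and in DMSO 1 gene was lower in A673 than in SKNMC (TGFBR1, beside 8.98%) and 2 were higher (SMAD6 and TGIF1, beside 16.6%). The 4 decreases in A673 at 200 nM became 3 with the 75th percentile scaling, where SKI was lost (beside 17.3%). They became 6 with the ribosomal protein scaling, where SMAD3 and SKIL were added (beside 34.7%). With a 1.5-fold limit 7 genes decreased at 200 nM in A673 and 7 in SKNMC, beside 41.1% and 48.0% of active genes, and 1 increased in SKNMC (SMAD7, beside 2.81%). Of 70 fold changes, 22 were called 2-fold, and none of these 22 changed sign. The pseudocount of 0.1 took 0 of them below 2-fold and added 3, the common sum took 0 and added 0, the 75th percentile took 8 and added 1, and the ribosomal protein scaling took 2 and added 9. Dropping the filter on low values changed no count, since all 10 genes were active. Fold changes were taken within each line, and a fit over both lines with the line as a block was not run. The depth behind each FPKM is unknown, so the precision of low values such as those of TGFBR1 in A673 cannot be given.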
